A study of Homo sapiens with 21 samples.

Results

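The control arms of 2 ways of knocking down RNA were compared in HEK 293FT cells: RfxCasR with a guide RNA labelled NT, and a short hairpin RNA (shRNA) labelled NT. The labels' titles put 3 libraries in each arm, which gives 6 of the 21 libraries of the series, and no measured value was used to choose them. NT is taken here in its usual sense of non-targeting, since the labels do not spell it out. The series asked how specific RfxCasR and matching shRNAs are, and it sequenced messenger RNA from 7 groups of 3 libraries. These groups are shRNA NT, shRNA ANXA4, shRNA B4GALNT1, RfxCasR NT gRNA, RfxCasR B4GALNT1 gRNA, RfxCasR NT array and RfxCasR ANXA4 array. All groups were of HEK 293FT cells, a line derived from human embryonic kidney that carries the large T antigen of SV40, at passages 8 to 12. In every group, plasmids were delivered with Lipofectamine 2000 and RNA was taken 48 h later. Cells without a plasmid were not analysed here, so a rise in one arm and a fall in the other cannot be told apart. The RfxCasR protein, its guide and the hairpin differ together between the arms, so their parts in a difference cannot be told apart either.

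RfxCasR is an RNA-guided nuclease of a CRISPR system; the cell makes the protein and the guide from plasmids, and the guide directs it to cut RNA. An shRNA works through the cell's own microRNA pathway: the hairpin is exported to the cytoplasm, cut by Dicer and loaded into an Argonaute protein, which silences matching transcripts. Double-stranded RNA in the cytoplasm can be detected by sensors such as RIG-I, MDA5, PKR and the OAS enzymes, which lead to interferon production, to interferon-stimulated genes and to a block of translation.

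The shRNA NT libraries held 22.7 to 24.2 M reads and the RfxCasR NT gRNA libraries 24.5 to 27.6 M reads, a depth recovered from the deposited values. Expression is given as FPKM, fragments per kilobase of exon per M reads, and differences as RfxCasR NT gRNA minus shRNA NT on the log2(FPKM + 1) scale. On that scale the change of a low gene is understated. The identity genes of the line were present, with 394 FPKM of the intermediate filament gene VIM in shRNA NT and 578 FPKM in RfxCasR NT gRNA. Among 15 markers of other cells (blood, fibroblast, endothelium), the blood markers PTPRC and HBB and the fibroblast marker COL1A2 were at 0 in all 6 libraries, and 10 of the 15 never reached 1 FPKM. Their summed level was 14.02 to 14.8 FPKM in shRNA NT and 15.7 to 17.5 FPKM in RfxCasR NT gRNA, most of it from the collagen gene COL1A1 at 8.62 to 8.74 and 8.93 to 11.03 FPKM. The target genes of the other arms were read first as a check. ANXA4, which encodes an annexin, measured 5.82, 6.31 and 5.57 FPKM in shRNA NT and 7.304, 6.56 and 7.26 FPKM in RfxCasR NT gRNA (log2 difference 0.22, SE 0.076, limma adjusted p = 0.0228), and the libraries did not overlap. B4GALNT1, which encodes a ganglioside-building glycosyltransferase, measured 4.04, 4.27 and 3.92 FPKM and 5.09, 6.88 and 5.69 FPKM (log2 difference 0.43, SE 0.075, limma adjusted p = 0.000109), again without overlap. For either gene the exact two-sided permutation test of 3 against 3 libraries gave p = 0.1, the smallest it can give. The ANXA4 call was lost without RfxCasR NT gRNA replicate 1 or 3 or shRNA NT replicate 1 or 3, with log2 differences of 0.19 to 0.26 over the 6 sets that leave out 1 library. In the array groups ANXA4 goes against the labels: it averaged 3.03 FPKM in the libraries labelled RfxCasR NT array and 7.03 FPKM in those labelled RfxCasR ANXA4 array. The array libraries enter the comparison of the controls only through the shared estimate of spread, and without them 7261 genes were called in place of 6687.

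The control arms differed in many genes by small amounts. Tests were run on the 13679 genes that reached 1 FPKM in 3 or more of the 21 libraries, and 6687 (48.9%) were called at a limma adjusted p under 0.05. With RfxCasR NT gRNA, 3066 of them (22.4% of genes tested) were higher and 3621 (26.5%) were lower. Of the calls, 84.2% were smaller than 0.5 on the log2 scale, and 74 reached a 2-fold difference in FPKM + 1, 63 higher and 11 lower. A called gene with a 2-fold change in FPKM itself can fall short of this. ESCO2 did so, with an FPKM ratio of 0.48 and a log2 difference of -0.96. The 74 include short annotations such as the snoRNA SNORD25 (66 bases, log2 difference 1.26). The split of calls depended on scaling: centring each library on its median, a shift of 0.044 log2, gave 3698 higher and 2860 lower. The 3 libraries of one arm lay wholly above the 3 of the other for 8302 genes (60.7%). The design text speaks of biological replicates without saying what was separate, so a p-value measures only how far these libraries spread.

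The same change of method was made with another target, B4GALNT1, in 6 libraries that share none with the control arms, and its values are set beside those of the controls. In that pair 5394 genes (39.4%) were called between RfxCasR B4GALNT1 gRNA and shRNA B4GALNT1, 2799 higher (20.5%) and 2595 lower (19%). Called in the same direction in both pairs were 1192 higher genes, which are 38.9% of the higher calls of the controls and 42.6% of those of the B4GALNT1 pair. For lower genes the shared number was 1459, or 40.3% and 56.2%. Another 659 genes were called in opposite directions. A test of the difference between the pairs, the interaction of method and target, called 4078 genes (29.8%), and 2930 of the 6687 genes called between the controls were among them. The B4GALNT1 hairpin and guide act on a gene of their own, so the pairs differ in target as well as in sequence.

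**Figure D1:**
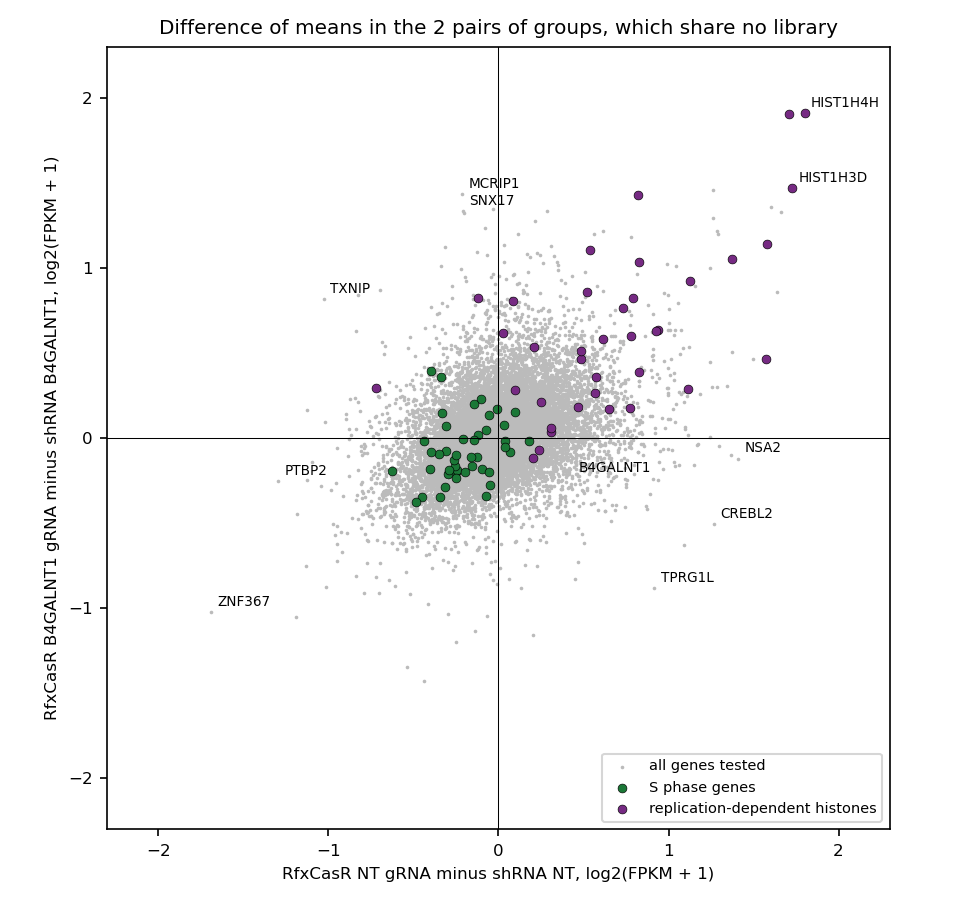
Log2 difference (RfxCasR minus shRNA, log2(FPKM + 1)) of each tested gene with the NT control (x axis) and with the B4GALNT1 target (y axis), with named genes labelled. HIST1H4H and ZNF367 lie far from 0 in the same direction on both axes, whereas NSA2 lies at 1.41 on the x axis and -0.12 on the y axis, and TXNIP at -1.03 and 0.82.

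Over the means of all 7 groups, the arm that stood apart was more often the shRNA control. It had the lowest of the 7 means for 53.4% of the genes called higher with RfxCasR NT gRNA (16.7% of all genes tested) and the highest for 57.2% of those called lower (22.8%). RfxCasR NT gRNA was the highest for 22.4% of the higher calls (9.37% of genes tested) and the lowest for 16.3% of the lower calls (6.84%). All 4 RfxCasR groups lay above all 3 shRNA groups for 26.9% of the higher calls (9.28% of genes tested), and below them for 37.8% of the lower calls (13.9%). These shares were not tested, and the groups compared are among the 7. Genes called in a direction cannot hold the opposite rank, so part of each excess over the share of genes tested is built in. With 4 RfxCasR groups and 3 shRNA groups, the arms also do not have the same room for an extreme mean.

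Replication-dependent histone genes made up 7 of the 10 largest rises among called genes with exons of at least 200 bases and no overlap between the arms. Their mRNAs are made in S phase, encode the bulk of the histones that package new DNA, and end in a stem-loop instead of the usual poly(A) tail. HIST1H4H, a histone H4 gene at chr6:26285354-26285727 (hg19, minus strand), measured 1.55, 2.25 and 1.396 FPKM in shRNA NT and 6.83, 10.4 and 8.39 FPKM in RfxCasR NT gRNA. The difference was 1.80 log2 (SE 0.21, limma adjusted p = 1.54e-06), and the libraries did not overlap, as that choice required. HIST1H3D, a histone H3 gene at chr6:26197012-26199521, measured 0.18, 0.624 and 0.189 FPKM and 3.76, 3.43 and 2.92 FPKM, a difference of 1.73 (limma adjusted p = 2.82e-08). Its annotation overlaps that of HIST1H2AD, another of the 7, on the same strand. The reads of these genes thus cannot be told apart, and the 7 rises may count 1 signal more than once. Neither gene reached 1 FPKM in any shRNA library, so both passed the filter on level through the RfxCasR groups alone. In hg19 both annotations start at 26199521 on the minus strand, so the bases printed for HIST1H3D lie before either start. The promoters of the pair at the head of the list are printed because members of the family moved together; the 160 bases before each start are from RefSeq (GRCh38.p14, minus strand), at chr6:26285535-26285694 for HIST1H4H and chr6:26199294-26199453 for HIST1H3D. Capitals mark the letters TATAA or CCAAT on either strand.
HIST1H4H: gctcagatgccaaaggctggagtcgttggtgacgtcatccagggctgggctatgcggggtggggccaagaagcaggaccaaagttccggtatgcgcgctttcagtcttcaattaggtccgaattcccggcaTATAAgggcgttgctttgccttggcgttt
HIST1H3D: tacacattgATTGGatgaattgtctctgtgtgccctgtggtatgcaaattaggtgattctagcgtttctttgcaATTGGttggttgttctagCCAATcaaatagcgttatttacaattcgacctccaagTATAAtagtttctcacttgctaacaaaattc
In 300-base RefSeq windows around the start, TATAA was found on either strand in 49 of 54 matched replication-dependent histone promoters (90.7%), against 21.1% of 27305 promoters. CCAAT was found in 83.3% of these histone promoters against 35.7% of all. A match describes the letters only, and its part in the difference was not tested.

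Among replication-dependent histone genes that passed the filter on level, calls were mostly higher. Of the 64 genes in the list, 59 had a value above 0 somewhere and 37 passed the filter on level, and among those 23 were higher (62.2%) and 1 lower (2.7%), beside 22.4% and 26.5% over all genes, with a median difference of 0.61 beside -0.019 over all genes tested. Members may have passed the filter through the RfxCasR groups alone, so these counts describe only those 37. Without the filter, 22 of the 59 were higher and none lower. Of the 11 that reached 1 FPKM in every shRNA NT library, 10 were higher, with a median of 0.82. The one lower call, HIST1H2AK, an H2A gene, measured 1.08, 0.769 and 1.04 FPKM in shRNA NT and 0.317, 0.268 and 0 FPKM in RfxCasR NT gRNA, and it was lost without the filter (limma adjusted p = 0.0677) and in 4 of the 6 sets that left out 1 library (log2 differences of -0.80 to -0.60). The core histone genes are near-identical copies, so the authors' counting could split reads between members, and single members are uncertain.

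Members at higher levels showed the same direction with less spread between libraries. HIST1H1C, which encodes a linker histone H1, measured 11.8, 14.4 and 12.9 FPKM in shRNA NT and 21.5, 23.5 and 22.1 FPKM in RfxCasR NT gRNA (log2 difference 0.74, SE 0.063, limma adjusted p = 2.74e-08). HIST1H2AC, an H2A gene, measured 3.12, 2.51 and 3.19 FPKM and 10.5, 9.26 and 7.92 FPKM, a difference of 1.37. The other large rises were HIST1H4E from 1.45 to 6.81 FPKM, HIST1H2AM from 1.37 to 5.92 FPKM, HIST1H2AD from 0.198 to 2.69 FPKM and HIST4H4 from 0.342 to 2.92 FPKM. In the B4GALNT1 pair 18 of the 37 tested members were higher and none lower, beside 20.5% and 19% of all genes tested, and 16 were higher in both pairs. The differences there were 1.91 for HIST1H4H, 1.06 for HIST1H2AC and 0.76 for HIST1H1C. HIST4H4 did not pass in that pair (0.46), and its difference between the pairs was 1.11 (limma adjusted p = 0.0113). HIST1H4H averaged 1.73, 1.36 and 1.58 FPKM in the NT, B4GALNT1 and ANXA4 shRNA groups, against 5.63 to 8.55 FPKM over the 4 RfxCasR groups.

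**Figure D2:**
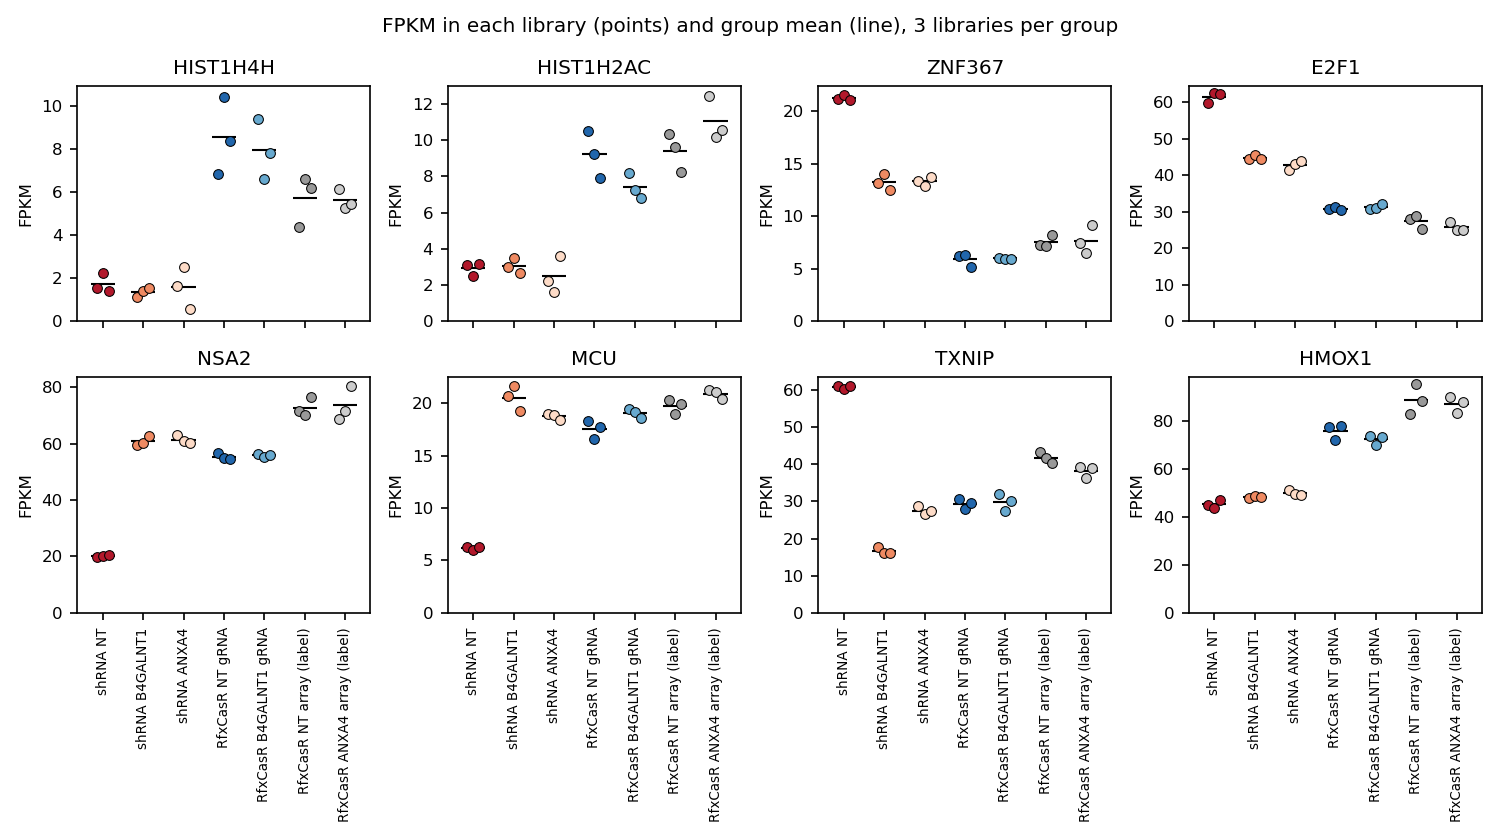
FPKM (y axis, linear from 0) of 8 genes in the libraries of the 7 groups (x axis), with a point for each library and a line at the group mean. For HIST1H4H, HIST1H2AC and HMOX1 every RfxCasR library lies above every shRNA library, for ZNF367 and E2F1 below, whereas for NSA2 and MCU the 3 shRNA NT libraries lie below, and for TXNIP above, those of all other groups.

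Of 11 replacement histones tested, which can be made outside S phase, 2 rose (18.2%) and 1 fell (9.09%), beside 22.4% and 26.5% over all genes. H3F3B (H3.3) rose from 174 to 213 FPKM (log2 difference 0.29), the linker histone H1FX rose from 226 to 271 FPKM (log2 difference 0.26) and H2AFX (H2A.X) fell from 123 to 103 FPKM (log2 difference -0.25). Factors that make and process histone mRNA moved both ways, with 2 of 14 higher (14.3%) and 5 lower (35.7%). These shares were near the 22.4% and 26.5% over all genes, and after median centring 4 were higher and 4 lower. SLBP, which binds the stem-loop, fell from 84.8 to 69.1 FPKM (log2 difference -0.29), NPAT, the activator of histone transcription, fell from 7.26 to 5.32 FPKM (log2 difference -0.38), and CASP8AP2 (FLASH), needed for 3' end cleavage, fell from 19.1 to 12.3 FPKM (log2 difference -0.60). All 3 were also lower in the B4GALNT1 pair, by -0.19, -0.43 and -0.33 log2. ERI1, an exonuclease that trims the histone 3' end, rose from 4.51 to 6.89 FPKM (log2 difference 0.52). SYMPK, a scaffold of the cleavage complex, was the other rise (0.17), and CPSF3 (-0.20) and CSTF2 (-0.13), which act in 3' end cleavage, were the other falls, the last of them a call lost in 4 of the 6 sets without 1 library.

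Few small noncoding RNA annotations were called. Of 162 snoRNA annotations tested 19 were higher (11.7%) and 2 lower (1.23%), and of 334 microRNA precursors 20 were higher (5.99%) and 13 lower (3.89%), beside 22.4% and 26.5% over all genes. SCARNA12, a small Cajal body RNA that lies inside PHB2 on the same strand, measured 2.92, 0.981 and 5.47 FPKM in shRNA NT and 11.9, 11.2 and 9.04 FPKM in RfxCasR NT gRNA (log2 difference 1.66, limma adjusted p = 6.04e-05). Its reads can be shared with its host. Exon length itself went with the direction of the calls. Between 200 and 500 bases 29.5% of tested genes were higher and 5.77% lower, with a median of 0.15, whereas at 6000 bases or more 18% were higher and 38.3% lower, with a median of -0.086. Without the replication-dependent histones, genes of 200 to 1000 bases were still higher in 27.3% and lower in 8.47%. The B4GALNT1 pair gave 21.8% higher and 0.641% lower at 200 to 500 bases and 17.5% and 26.8% at 6000 or more. The part of length, RNA quality or how messenger RNA was selected in the histone rise was not tested.

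**Figure D3:**
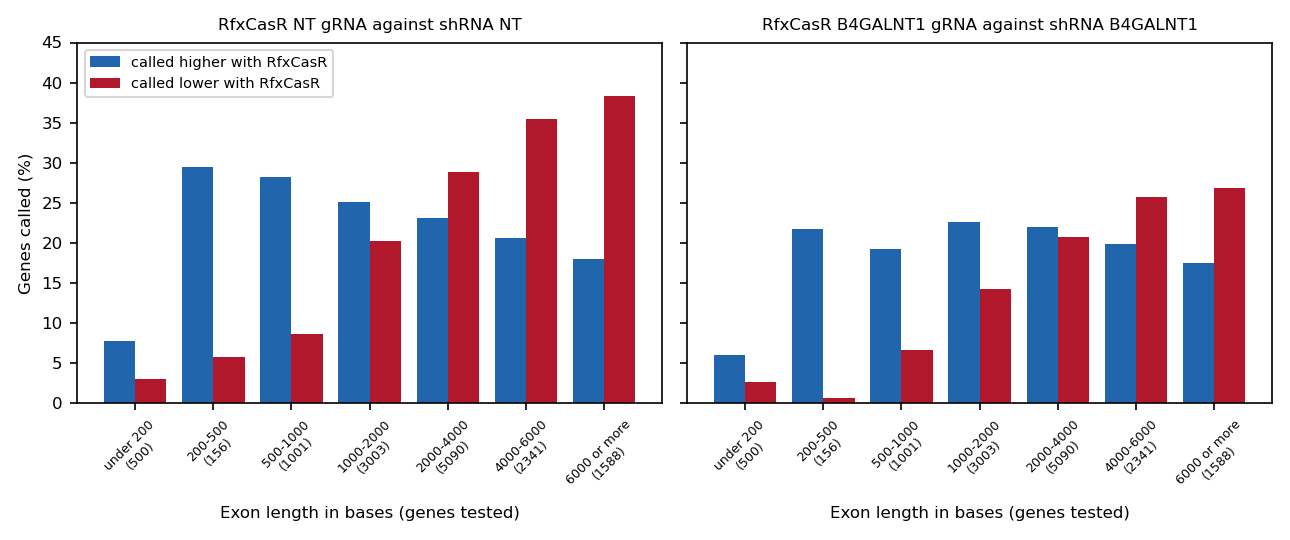
Percent of tested genes called higher and lower with RfxCasR NT gRNA in classes of exon length (bases, x axis), for the control pair and the B4GALNT1 pair. From 200 bases upward the share called lower rises from 5.77% to 38.3% in the control pair and from 0.641% to 26.8% in the B4GALNT1 pair.

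Genes of DNA replication and mitosis were lower with RfxCasR NT gRNA. Of 44 S phase genes 31 fell (70.5%) and 2 rose (4.55%), with a median difference of -0.22, beside 26.5% lower and 22.4% higher over all genes. CDC45, which helps to form the replicative helicase, measured 55.9, 56.5 and 53.1 FPKM in shRNA NT and 34.1, 36.3 and 36.02 FPKM in RfxCasR NT gRNA (log2 difference -0.62, SE 0.042, limma adjusted p = 9.59e-10). CDC6, which loads that helicase, fell from 84.6 to 61.6 FPKM (log2 difference -0.45), its subunit MCM6 fell from 81.6 to 61.6 FPKM (log2 difference -0.40), and DUT, which clears dUTP, fell from 55.9 to 41.1 FPKM (log2 difference -0.44). The libraries of the arms did not overlap for 34 members that were lower and 2 that were higher, beside 33.1% and 27.6% of all genes tested. The 2 that rose were GINS3, a helicase cofactor, from 19.1 to 21.7 FPKM (log2 difference 0.18), and TK1, thymidine kinase, from 139 to 149 FPKM (log2 difference 0.10); leaving out 1 library lost the call of GINS3 in 2 of 6 sets and that of TK1 in all 6. The sliding clamp PCNA fell from 264 to 242 FPKM (log2 difference -0.12). In the B4GALNT1 pair 20 of the 44 were lower and 8 higher, beside 19% and 20.5% of all genes tested, and 17 were lower in both pairs.

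The largest fall was that of ZNF367, a zinc finger gene, at chr9:99148225-99180669 (hg19): 21.2, 21.6 and 21.1 FPKM in shRNA NT and 6.23, 6.33 and 5.21 FPKM in RfxCasR NT gRNA (log2 difference -1.69, SE 0.083, limma adjusted p = 1.51e-11). E2F1, the transcription factor that drives entry into S phase, measured 59.9, 62.6 and 62.2 FPKM and 30.7, 31.3 and 30.5 FPKM, a difference of -0.97 (limma adjusted p = 4.39e-12). Neither gene's libraries overlapped between the arms, which the rule for the largest falls required. The shRNA NT libraries had the highest group mean for both: E2F1 averaged 44.8 and 42.8 FPKM in the B4GALNT1 and ANXA4 shRNA groups, and 31.3, 27.4 and 25.8 FPKM in the other RfxCasR groups. The differences in the B4GALNT1 pair were -1.02 for ZNF367 and -0.50 for E2F1, and both were smaller than between the controls (limma adjusted p of the difference 0.000253 and 9.89e-06). The 160 bases before the start of E2F1, MCM6 and ZNF367 are printed because all fell and because the E2F family is known to bind TTTNNCGC-type sites; they are from RefSeq (GRCh38.p14, minus strand) at chr20:33686386-33686545, chr2:135876444-135876603 and chr9:96418371-96418530. Capitals mark TTTNNCGC on either strand, and neighbouring matches can overlap.
E2F1: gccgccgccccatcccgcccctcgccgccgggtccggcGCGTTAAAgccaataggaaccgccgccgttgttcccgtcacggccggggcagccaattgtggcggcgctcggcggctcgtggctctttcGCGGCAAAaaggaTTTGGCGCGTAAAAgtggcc
MCM6: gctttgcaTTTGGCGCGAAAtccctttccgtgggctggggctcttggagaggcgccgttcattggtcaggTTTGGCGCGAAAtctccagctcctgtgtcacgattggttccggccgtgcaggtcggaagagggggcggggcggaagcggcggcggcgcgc
ZNF367: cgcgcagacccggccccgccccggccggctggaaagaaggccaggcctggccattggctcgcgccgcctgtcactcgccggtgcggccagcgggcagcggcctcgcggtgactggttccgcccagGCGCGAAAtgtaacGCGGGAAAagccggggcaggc
TTTNNCGC was found in the 300-base windows of 20 of 38 matched S phase genes (52.6%), against 6.9% of all 27305 promoters and 10.9% of those of genes tested. It was also in 35.2% of the replication-dependent histone promoters, whose genes moved the other way.

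Among 42 genes of G2 and mitosis 25 fell (59.5%) and 5 rose (11.9%), beside 26.5% and 22.4% over all genes, with a median of -0.14. ANLN, the actin-binding anillin of the cleavage furrow, measured 43.97, 44.3 and 45.6 FPKM in shRNA NT and 25.5, 25.1 and 25.2 FPKM in RfxCasR NT gRNA (log2 difference -0.80, limma adjusted p = 2.35e-10). SMC4, a condensin subunit, fell from 48.3 to 27.9 FPKM (log2 difference -0.77), the spindle factor TPX2 fell from 92.5 to 65.3 FPKM (log2 difference -0.50) and the phosphatase CDC25B fell from 40.3 to 27.3 FPKM (log2 difference -0.55). The 5 that rose were CCNB1 (0.26), CDC25C (0.32), PLK1 (0.13), PRC1 (0.29) and NCAPH (0.30). The proliferation marker MKI67 did not pass, at 26.8 and 24.8 FPKM. In the B4GALNT1 pair 16 of the 42 were lower and 11 higher, beside 19% and 20.5% of all genes tested. Regulators of G1 moved both ways, 8 up and 8 down of 22 (36.4% each, beside 22.4% and 26.5% over all genes). With E2F1, the inhibitor CDKN2D fell from 22.02 to 11.3 FPKM (log2 difference -0.90) and E2F2 fell from 21.6 to 13.4 FPKM (log2 difference -0.65), whereas the G1 kinase CDK6 rose from 5.49 to 10.1 FPKM (log2 difference 0.78).

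**Figure D4:**
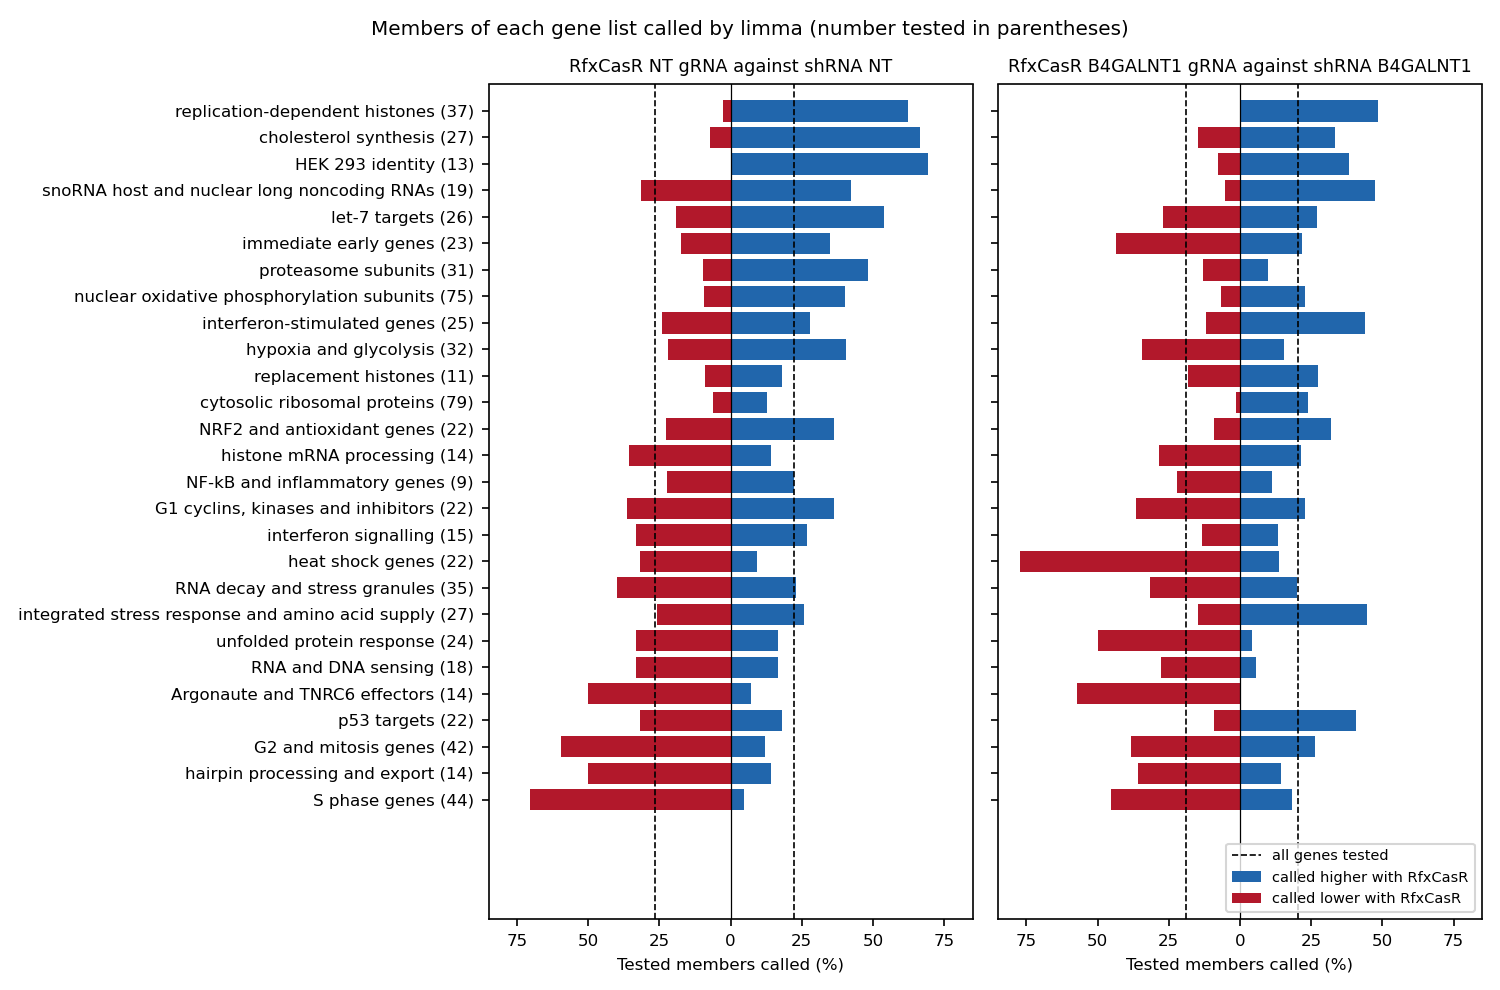
Members called higher (to the right) and lower (to the left) as a percent of those tested in each gene list, for the control pair and the B4GALNT1 pair; dashed lines give the share over all 13679 genes. Replication-dependent histones and cholesterol synthesis extend to the right, and S phase, G2 and mitosis and the Argonaute and TNRC6 effectors extend to the left.

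Interferon-stimulated genes were called in both directions, at shares near those over all genes. Of 25 tested, from a list of 35, 7 rose (28%) and 6 fell (24%), beside 22.4% and 26.5% over all genes, with a median of 0.089. The split depended on the setting: after median centring 9 were higher and 3 lower, with voom 7 and 3, and without shRNA NT replicate 1 the number lower was 2 and without any one RfxCasR NT gRNA library 3. Most of those that rose belong to antigen presentation, among them HLA-C (0.19), the peptide transporter gene TAP1 (0.25), HLA-B, HLA-E and B2M. HLA-E, a non-classical class I molecule, measured 23.98, 24.5 and 23.99 FPKM in shRNA NT and 32.8, 32.9 and 33.3 FPKM in RfxCasR NT gRNA (log2 difference 0.43, limma adjusted p = 1.85e-07). HLA-B rose from 122 to 149 FPKM (log2 difference 0.28) and B2M, the light chain of class I molecules, rose from 142 to 169 FPKM (log2 difference 0.25). Outside antigen presentation, IFI35 rose from 5.12 to 10.4 FPKM (log2 difference 0.90). Other members went down or did not pass: the ubiquitin-like ISG15 fell from 9.396 to 7.096 FPKM (log2 difference -0.36), and this call was lost in 5 of the 6 sets that left out 1 library (log2 differences of -0.42 to -0.32). The tetherin gene BST2 fell from 5.07 to 2.54 FPKM (log2 difference -0.78), LGALS3BP fell from 62.5 to 46.6 FPKM (log2 difference -0.41), and IFIT1 measured 1.497 and 1.77 FPKM. In the B4GALNT1 pair 11 of the 25 were higher and 3 lower, beside 20.5% and 19% of all genes tested.

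Of 18 genes that sense RNA and DNA 6 fell (33.3%) and 3 rose (16.7%), shares near the 26.5% and 22.4% over all genes, with a median of -0.12, and after median centring 5 were lower and 4 higher. MAVS, the mitochondrial adaptor of RIG-I, measured 4.28, 4.25 and 4.599 FPKM in shRNA NT and 6.61, 6.75 and 6.69 FPKM in RfxCasR NT gRNA (log2 difference 0.52, limma adjusted p = 1.2e-06), without overlap. OAS3, one of the OAS enzymes, rose from 3.02 to 3.92 FPKM (log2 difference 0.29), and the third to rise was TMEM173 (STING), from 2.404 to 3.48 FPKM (log2 difference 0.39), a call lost in 2 of the 6 sets (log2 differences of 0.27 to 0.45). The adaptor TRAF3 fell from 10.9 to 9.09 FPKM (log2 difference -0.23), and TRIM25, a ligase that activates RIG-I, fell from 13.9 to 11.2 FPKM (log2 difference -0.29). Of the sensors, IFIH1 (MDA5) fell from 1.33 to 0.924 FPKM (log2 difference -0.27), limma adjusted p = 0.0189, a call lost in 2 of the 6 sets without 1 library (log2 differences of -0.31 to -0.24). DDX58 (RIG-I) measured 1.16 and 1.28 FPKM without passing, and EIF2AK2 (PKR) measured 7.97 and 7.71 FPKM, also without passing. MAVS was lowest in shRNA NT, with 6.28 and 6.32 FPKM in the other shRNA groups, and its difference in the B4GALNT1 pair was 0.074. Of 15 genes of interferon signalling 4 rose (26.7%) and 5 fell (33.3%), shares near the 22.4% and 26.5% over all genes. The kinase JAK1 rose from 15.1 to 20.2 FPKM (log2 difference 0.39) and the receptor chain IFNGR2 rose from 15.2 to 18.03 FPKM (log2 difference 0.24), and USP18, an inhibitor of interferon receptor signalling, fell from 8.28 to 6.63 FPKM (log2 difference -0.28). Of 9 NF-kB genes tested 2 fell and 2 rose (22.2% each), again near the shares over all genes. REL fell from 2.86 to 1.74 FPKM (log2 difference -0.50), NFKB1 fell from 7.95 to 5.95 FPKM (log2 difference -0.37), and NFKBIE (0.25) and RELA (0.11) rose by amounts that lost the call in 3 and 5 of the 6 sets without 1 library. The medians of the interferon signalling and NF-kB lists changed sign under some scalings.

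Called genes of RNA interference were lower with RfxCasR NT gRNA more often than higher. Of 14 effectors around Argonaute 7 fell (50%, beside 26.5% over all genes) and 1 (7.14%, beside 22.4%), the helicase MOV10, rose (0.32), with a median of -0.12; after median centring or with voom 6 were lower and 2 higher. AGO1, an Argonaute, measured 11.8, 10.9 and 11.6 FPKM in shRNA NT and 8.64, 8.99 and 8.58 FPKM in RfxCasR NT gRNA (log2 difference -0.35, SE 0.051, limma adjusted p = 1.55e-05). TSN (translin), part of the complex that clears the passenger strand, measured 40.1, 39.6 and 41.6 FPKM and 29.7, 29.03 and 29.6 FPKM, a difference of -0.44. Over the other groups AGO1 was not low with RfxCasR alone: it averaged 3.78 FPKM in shRNA ANXA4, 12.2 FPKM in shRNA B4GALNT1, and 7.33 to 8.99 FPKM over the other 3 RfxCasR groups. AGO3 fell from 5.51 to 3.49 FPKM (log2 difference -0.54) and TNRC6C, a partner of Argonaute in silencing, fell from 3.44 to 2.15 FPKM (log2 difference -0.49). AGO2, the Argonaute that can cut its target, did not pass, at 16.5 and 15.2 FPKM. AGO1 and TSN were also lower in the B4GALNT1 pair (-0.40 and -0.43; limma adjusted p of the difference between pairs 0.641 and 0.901), whereas AGO3 did not pass there (-0.0082; 0.00359). TSN was low in the 2 guide groups only: it averaged 40.4 and 41.1 FPKM in the other shRNA groups, 29.6 FPKM in RfxCasR B4GALNT1 gRNA, and 42.1 and 40.7 FPKM in the array groups. In the B4GALNT1 pair 8 of the 14 effectors were lower and none higher, beside 19% and 20.5% of all genes tested, and 5 were lower in both pairs.

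Upstream of Argonaute, 7 of 14 genes of hairpin processing and export fell (50%, beside 26.5% over all genes) and 2 rose (14.3%, beside 22.4%). After median centring these were 4 and 3, with voom 6 and 3, and 4 fell without RfxCasR NT gRNA replicate 2. XPO5, the exporter of microRNA and shRNA hairpins, fell from 39.95 to 35.6 FPKM (log2 difference -0.16), its partner RAN fell from 237 to 212 FPKM (log2 difference -0.16), and ZCCHC6, which adds uridines to small RNA precursors, fell from 4.58 to 3.63 FPKM (log2 difference -0.27). DROSHA, which cuts primary microRNA transcripts, fell from 25.8 to 23.3 FPKM (log2 difference -0.15), a call lost in 3 of the 6 sets that left out 1 library (log2 differences of -0.19 to -0.12). DICER1, which cuts the hairpin, went the other way: 10.1, 9.17 and 10.4 FPKM in shRNA NT and 11.5, 11.8 and 12.1 FPKM in RfxCasR NT gRNA (log2 difference 0.24, limma adjusted p = 0.0015). With the B4GALNT1 target it was lower with RfxCasR (-0.45), at 11.2 FPKM against 15.7 FPKM in shRNA B4GALNT1, and the difference between the pairs was 0.69 (limma adjusted p = 1.58e-06). The other gene to rise was LIN28B (0.18), which blocks maturation of let-7 microRNAs. Of 26 known let-7 targets tested 14 rose (53.8%, beside 22.4% over all genes) and 5 fell (19.2%, beside 26.5%), with a median of 0.14. In the B4GALNT1 pair 7 of the 26 rose and 7 fell, beside 20.5% and 19% of all genes tested. CDK6 measured 5.25, 5.69 and 5.54 FPKM and 10.5, 9.92 and 9.97 FPKM (log2 difference 0.78, limma adjusted p = 4.21e-09), without overlap. The chromatin proteins HMGA2 and HMGA1 rose from 13.4 to 19.9 FPKM (log2 difference 0.54) and from 239 to 317 FPKM (log2 difference 0.41), and the phosphatase CDC25A fell from 64.2 to 51.2 FPKM (log2 difference -0.32). CDK6 varied widely over the shRNA groups, with 3.75 FPKM in shRNA B4GALNT1 and 14.2 FPKM in shRNA ANXA4, against 9.79 to 10.96 FPKM in the other RfxCasR groups.

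Genes of the stress pathways were called in both directions, mostly at shares near those over all genes (22.4% higher, 26.5% lower). The integrated stress response and the supply of amino acids were represented by 27 tested genes, of which 7 rose and 7 fell (25.9% each); after median centring 8 were higher and 5 lower, and without RfxCasR NT gRNA replicate 2 the number higher was 4. ATF4, its transcription factor, measured 231, 221 and 230.1 FPKM in shRNA NT and 281, 279.8 and 275 FPKM in RfxCasR NT gRNA (log2 difference 0.29, limma adjusted p = 0.000149), and EIF4EBP1, an inhibitor of cap-dependent translation, rose from 84.6 to 111 FPKM (log2 difference 0.39). Other genes of the list went the other way, among them CHAC1, a glutathione-degrading enzyme, which fell from 6.17 to 3.31 FPKM (log2 difference -0.75), SLC7A11, the cystine transporter, which fell from 4.83 to 2.58 FPKM (log2 difference -0.71), and VLDLR, which fell from 4.84 to 3.098 FPKM (log2 difference -0.51). DDIT3 (CHOP) measured 16.8 and 19.8 FPKM without passing, although it did after median centring (limma adjusted p = 0.0463) and with quantile-normalized values (0.046). It also passed with only the groups compared (limma adjusted p = 0.0311), with a replicate block (0.0295) and without the array libraries (0.0217). In the unfolded protein response 8 of 24 fell (33.3%) and 4 rose (16.7%), with 7 and 6 after median centring and 11 and 3 with quantile-normalized values. The sensor EIF2AK3 (PERK) fell from 5.99 to 4.38 FPKM (log2 difference -0.38) and the chaperone HYOU1 fell from 45.03 to 39.3 FPKM (log2 difference -0.19), whereas the disulfide isomerase PDIA6 rose from 140.1 to 174 FPKM (log2 difference 0.31) and the chaperone CALR rose from 286 to 336 FPKM (log2 difference 0.23).

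Of 22 heat shock genes 7 fell (31.8%, beside 26.5% over all genes) and 2 rose (9.09%, beside 22.4%). The split depended on scaling, with 6 lower and 4 higher after median centring, 6 and 3 with voom, and 13 and 0 with quantile-normalized values. HSPH1, a co-chaperone, measured 42.2, 43.7 and 42.2 FPKM in shRNA NT and 30.3, 28.7 and 29.95 FPKM in RfxCasR NT gRNA (log2 difference -0.51, limma adjusted p = 7.42e-06). HSPA4 fell from 159 to 139 FPKM (log2 difference -0.20) and DNAJA1 fell from 98.96 to 85.6 FPKM (log2 difference -0.21). The inducible HSPA1A measured 272 and 261 FPKM and did not pass, although it did with quantile-normalized values and with a replicate block. HSP90AB1 rose from 837 to 944 FPKM (log2 difference 0.17), and HSPB1 was the other to rise (0.15); both calls were lost with quantile-normalized values. The B4GALNT1 pair had more calls in this list, with 17 of the 22 lower and 3 higher, beside 19% and 20.5% of all genes tested.

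Of 22 p53 targets 7 fell (31.8%) and 4 rose (18.2%), near the 26.5% and 22.4% over all genes, and after median centring 4 were lower and 4 higher. CDKN1A (p21), the cell cycle inhibitor, measured 6.71, 8.35 and 7.43 FPKM in shRNA NT and 11.9, 12.7 and 12.5 FPKM in RfxCasR NT gRNA (log2 difference 0.66, limma adjusted p = 8.04e-06). The libraries did not overlap, and the B4GALNT1 pair gave 0.73. BTG2, which slows proliferation, rose from 8.01 to 10.98 FPKM (log2 difference 0.41), and the death receptor gene TNFRSF10B fell from 23.2 to 17.1 FPKM (log2 difference -0.42), as did the phosphatase gene PPM1D (-0.27). The large T antigen of this line is known to bind p53. Among 22 antioxidant genes 8 rose (36.4%, beside 22.4% over all genes) and 5 fell (22.7%, beside 26.5%), with 9 and 3 after median centring or with voom and 5 and 6 with quantile-normalized values. HMOX1, heme oxygenase, measured 45.1, 43.9 and 47.3 FPKM and 77.7, 72.4 and 78.3 FPKM, a difference of 0.73 (limma adjusted p = 5.09e-10), and was also higher in the B4GALNT1 pair (0.57). SRXN1, a sulfiredoxin, rose from 12.7 to 16.7 FPKM (log2 difference 0.37). The list of 35 genes of RNA decay and stress granules had 14 falls (40%, beside 26.5% over all genes) and 8 rises (22.9%, beside 22.4%). After median centring it had 12 falls and 8 rises. DCP2, the decapping enzyme, fell from 16.2 to 12.1 FPKM (log2 difference -0.40), while the stress granule proteins G3BP2 and CAPRIN1 rose from 43.1 to 64.5 FPKM (log2 difference 0.57) and from 59.1 to 76.2 FPKM (log2 difference 0.36), and the deadenylase subunit CNOT8 rose from 24.6 to 32.8 FPKM (log2 difference 0.40). G3BP2 and CAPRIN1 were lower with RfxCasR in the B4GALNT1 pair (-0.31 and -0.33).

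Many genes of cholesterol synthesis were higher. Of 27 tested 18 rose (66.7%, beside 22.4% over all genes) and 2 fell (7.41%, beside 26.5%), with a median of 0.28; the falls were SREBF1 (-0.54), a transcription factor of lipid synthesis, and SCAP (-0.13), the sterol sensor, whose call was lost in 4 of the 6 sets without 1 library. INSIG1, a sterol-regulated brake on the pathway, measured 79.5, 75.2 and 77.8 FPKM in shRNA NT and 155, 159.96 and 164 FPKM in RfxCasR NT gRNA (log2 difference 1.03, SE 0.068, limma adjusted p = 8.91e-10). HMGCS1, which makes the precursor of mevalonate, measured 35.5, 34.8 and 35.98 FPKM and 57.97, 59.9 and 61.7 FPKM, a difference of 0.74, and the arms did not overlap for either gene. The later enzymes FDFT1 and SQLE rose from 91.1 to 129.9 FPKM (log2 difference 0.51) and from 54.8 to 87.9 FPKM (log2 difference 0.67). In the B4GALNT1 pair 9 were higher and 4 lower, beside 20.5% and 19% of all genes tested. The difference between the pairs was called for 17 of the 27, beside 29.8% of all genes tested. HMGCS1 averaged 61.5 and 63.03 FPKM in the shRNA and RfxCasR groups of that pair, and 29.9 FPKM in shRNA ANXA4. The level in the shRNA groups thus ranged from 29.9 to 61.5 FPKM.

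Glycolysis, respiration and protein turnover had more higher than lower members. Of 32 genes of hypoxia and glycolysis 13 rose (40.6%) and 7 fell (21.9%), beside 22.4% and 26.5% over all genes. ALDOA, the glycolytic aldolase, measured 820.00, 849 and 828 FPKM in shRNA NT and 1684, 1720.02 and 1719.5 FPKM in RfxCasR NT gRNA (log2 difference 1.04, SE 0.042, limma adjusted p = 1.08e-12). It was lowest in shRNA NT: the other 5 groups averaged 1283 to 1745 FPKM. LDHA rose from 668 to 918 FPKM (log2 difference 0.46), GPI rose from 76.8 to 104 FPKM (log2 difference 0.43), and P4HA2, a collagen prolyl hydroxylase, rose from 18.8 to 29.997 FPKM (log2 difference 0.64). Of 75 nuclear subunits of oxidative phosphorylation 30 rose (40%) and 7 fell (9.33%), with a median of 0.097; over the alternatives the number higher ran from 20 to 40, and quantile-normalized values gave 20 higher and 14 lower. The ATP synthase subunit gene ATP5O measured 128, 118 and 114 FPKM and 246, 233 and 239.7 FPKM, a difference of 0.99, and SDHD, an anchor of succinate dehydrogenase, rose from 23.6 to 42.6 FPKM (log2 difference 0.82). ATP5B rose from 455 to 634 FPKM (log2 difference 0.48) and the complex I subunit NDUFS1 fell from 45.96 to 32.8 FPKM (log2 difference -0.47). Among 31 proteasome subunits 15 rose (48.4%) and 3 fell (9.68%), with 17 and 1 after median centring and 12 and 6 with quantile-normalized values, led by PSMA6, from 46.01 to 80.6 FPKM (log2 difference 0.80), with PSMB6, PSMB7 and PSMD11 higher by 0.48, 0.35 and 0.31. For ALDOA, ATP5O, SDHD and PSMA6 the B4GALNT1 pair gave 0.094, 0.11, -0.08 and -0.16. Length went with the direction of the calls as given above, and the median exon length was 797 bases in the oxidative phosphorylation list, 1530 bases in the proteasome list and 2772 bases in the hypoxia and glycolysis list; its part was not tested.

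Cytosolic ribosomal protein genes gave little: 10 of 79 rose (12.7%) and 5 fell (6.33%), beside 22.4% and 26.5% over all genes. Their median of 0.034 changed sign with quantile-normalized values (-0.052), where 6 were higher and 24 lower. After median centring 21 were higher and 2 lower, and with voom 21 and 3. Hosts of snoRNAs and nuclear long noncoding RNAs moved both ways, with 8 higher (42.1%, beside 22.4%) and 6 lower (31.6%, beside 26.5%) of 19. SNHG1 measured 63.6, 59.1 and 68.6 FPKM in shRNA NT and 99.7, 89.4 and 92.4 FPKM in RfxCasR NT gRNA (log2 difference 0.55, limma adjusted p = 1.11e-06), and 8 annotated snoRNAs lie within it on the same strand. SNHG3 rose from 9.27 to 15.03 FPKM (log2 difference 0.65) and TUG1 rose from 12.5 to 17.4 FPKM (log2 difference 0.45). Of 23 immediate early genes 8 rose (34.8%) and 4 fell (17.4%), beside 22.4% and 26.5% over all genes. Without RfxCasR NT gRNA replicate 2 or shRNA NT replicate 1 or 3, the number that rose was 5. The transcription factor gene JUN rose from 95.1 to 137 FPKM (log2 difference 0.52) and the phosphatase gene DUSP1 rose from 28.6 to 43.9 FPKM (log2 difference 0.60), whereas CTGF, a target of YAP, fell from 11.002 to 5.36 FPKM (log2 difference -0.91). JUN and DUSP1 were lower with RfxCasR in the B4GALNT1 pair (-0.31 and -0.31). Of 13 identity genes of HEK 293 cells 9 rose (69.2%) and none fell, beside 22.4% and 26.5% over all genes. Those that rose include VIM, from 394 to 578 FPKM (log2 difference 0.55), and the keratin gene KRT8, from 52.9 to 71.9 FPKM (log2 difference 0.43). The neurofilament genes NEFM and NEFL rose from 17.9 to 27.8 FPKM (log2 difference 0.61) and from 30.9 to 40.2 FPKM (log2 difference 0.37).

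For several of the largest differences the shRNA NT libraries were apart from every other group. NSA2, a factor of large ribosomal subunit assembly at chr5:74062816-74072737 (hg19, plus strand), measured 19.9, 20.2 and 20.6 FPKM in shRNA NT and 56.8, 54.8 and 54.6 FPKM in RfxCasR NT gRNA (log2 difference 1.41, SE 0.046, limma adjusted p = 9.65e-14). The other groups averaged 55.8 to 73.6 FPKM, so shRNA NT alone was low. With the B4GALNT1 target the difference was -0.12, and the difference between the pairs was 1.53 (limma adjusted p = 8.62e-12). MCU, which forms the channel of the calcium uniporter in mitochondria, showed the same pattern, with 6.25, 5.99 and 6.32 FPKM against 18.3, 16.6 and 17.7 FPKM and group means of 18.8 to 20.9 FPKM elsewhere. The phospholipid acyltransferase gene LPCAT3 measured 6.401, 5.69 and 6.12 FPKM against 16.1, 15.6 and 17.5 FPKM, with 15.4 to 22.4 FPKM elsewhere.

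CREBL2 and TPRG1L had the largest positive differences between the pairs. CREBL2, a CREB-like transcription factor gene, measured 3.197, 2.54 and 3.14 FPKM in shRNA NT and 8.26, 8.696 and 8.57 FPKM in RfxCasR NT gRNA. It averaged 12.4 FPKM in shRNA B4GALNT1, above the 8.39 FPKM of RfxCasR B4GALNT1 gRNA, so that the log2 difference was 1.27 between the controls and -0.51 in the other pair. TPRG1L measured 6.74, 7.13 and 6.74 FPKM and 13.6, 14.3 and 13.7 FPKM in the control arms, and averaged 25.9 and 24.9 FPKM in the other shRNA groups. Its difference between the pairs was 1.80 (limma adjusted p = 3.28e-12). SQSTM1, the autophagy receptor p62, was likewise lowest in shRNA NT (20.4 FPKM, against 43.6 FPKM in RfxCasR NT gRNA and 46.8 FPKM in shRNA B4GALNT1). HAPLN3, a link protein of the extracellular matrix, measured 2.44, 2.43 and 2.21 FPKM against 8.74, 9.33 and 7.49 FPKM (limma adjusted p = 3.76e-11), was lowest in shRNA NT and was also higher with RfxCasR in the B4GALNT1 pair (0.47).

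In the other direction, TXNIP, the thioredoxin-interacting protein that restrains glucose uptake, measured 61.2, 60.3 and 61.3 FPKM in shRNA NT and 30.8, 28.002 and 29.5 FPKM in RfxCasR NT gRNA (log2 difference -1.03, SE 0.054, limma adjusted p = 3.76e-11). It averaged 16.6 FPKM in shRNA B4GALNT1 and 29.9 FPKM in RfxCasR B4GALNT1 gRNA, a difference of 0.82. Of the genes tested with exons of at least 200 bases, it had the most negative difference between the pairs, -1.84 (limma adjusted p = 8.46e-12). Its annotation lies within those of NBPF10 and NBPF20 on the same strand. MCRIP1, SNX17, SNX12 and FGFRL1 followed, with differences between the pairs of -1.65, -1.54, -1.43 and -1.37; between the controls MCRIP1 and SNX17 fell by only 0.21 and 0.21, and those calls were lost after median centring.

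The remaining large falls were of 7 genes with different roles. PTBP2, a splicing regulator of neurons, measured 25.3, 26.8 and 23.6 FPKM in shRNA NT and 10.2, 9.298 and 9.53 FPKM in RfxCasR NT gRNA (log2 difference -1.30, limma adjusted p = 8.27e-12), and 9.42 to 14.1 FPKM on average in the other groups. CBX7, a Polycomb protein, fell from 4.96 to 1.74 FPKM (log2 difference -1.13), MXD3, a partner of MAX, fell from 13.1 to 5.61 FPKM (log2 difference -1.10), and the scaffold gene LIN7B fell from 9.86 to 3.79 FPKM (log2 difference -1.18). DPP7, a lysosomal peptidase, fell from 3.94 to 1.39 FPKM (log2 difference -1.04), ESCO2, which acetylates cohesin in S phase, fell from 16.2 to 7.82 FPKM (log2 difference -0.96), and KLHL28 fell from 5.22 to 2.08 FPKM (log2 difference -1.01). KLHL28 differed by -0.88 in the B4GALNT1 pair, and the difference between the pairs did not pass for it (limma adjusted p = 0.377). All 7 were without overlap between the arms, which the rule that picked them required.

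Level went with the direction of the calls as well. Of 700 genes with a mean of at least 100 FPKM, 41% were higher and 14% lower with RfxCasR NT gRNA, whereas of 2614 genes with a mean of 10 to 20 FPKM 21.7% were higher and 35.2% lower. The summed FPKM of a library was 386287 to 396605 in shRNA NT and 400613 to 405152 in RfxCasR NT gRNA, without overlap. By annotation, 23.4% of 12255 protein-coding genes were higher and 28.4% lower, 16.5% and 7.7% of 1000 noncoding RNA genes, and 6.18% and 21.6% of 259 pseudogenes. The part of depth or scaling in these shares was not tested.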

How the data were processed

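Messenger RNA of HEK 293FT cells was sequenced as stranded libraries, per the labels' protocols; how messenger RNA was selected is not given in the sources used here. The submitters' processing notes name FastQC, STAR, HOMER, DESeq2 1.14.1, R 3.3.2 and the build hg19, with no role or order. The authors deposited FPKM values for 27142 genes, per the file headers written by HOMER from reads in exons of genes. Because FPKM keep a step of 1 read, depth was recovered from the low values: 98.7% to 99.3% of the values in the 6 libraries were whole reads within 0.1. The authors' tables of their own comparisons were not used.

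Groups were taken from the labels' titles. The 13679 genes that reached 1 FPKM in 3 or more of 21 libraries were tested on log2(FPKM + 1) in 1 model over the 7 groups, with limma 3.58.1 in R 4.3.3, an intensity trend and Benjamini-Hochberg adjustment over all genes; a call is an adjusted p under 0.05. The test was also run on simulated data of independent noise with known changes in 200 of 13679 genes. Of changes of 0.25, 0.5 and 1 log2, 46.3%, 88.1% and 95.5% were recovered, and 4 of 157 calls were false. Far more genes were called between the arms, so the simulation does not measure errors among those calls. Replicates of the 2 arms differed by more than sampling noise, so all 6 count as separate libraries.

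The named genes are ANXA4 and B4GALNT1, the 10 largest rises and 10 largest falls with exons of at least 200 bases and no overlap, up to 4 called members with the smallest p in each of 28 gene lists, and the 5 largest differences between the pairs each way. The comparison, lists and rule were chosen with earlier results of these data known, and not every gene the rule takes is described. These genes were named outside it, after their values were seen: AGO2, ATF4, BST2, CCNB1, CDC25C, CHAC1, COL1A1, CPSF3, CSTF2, DDIT3, DDX58, DROSHA, EIF2AK2, GINS3, HIST1H2AK, HLA-C, HSPA1A, HSPB1, IFI35, IFIH1, IFIT1, ISG15, LIN28B, MKI67, MOV10, NCAPH, PCNA, PLK1, PRC1, SCAP, SLC7A11, SREBF1, SYMPK, TAP1, TK1 and TMEM173. Some genes that the lists hold are not reported here. Lists are described by counts and medians with no test. Promoters came from RefSeq (GRCh38.p14) windows of 250 bases before to 50 after the start, matched for 10527 of the genes tested. Alternatives covered the pseudocount, the filter, scaling, the spread, voom on recovered reads and leaving out each library.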

Additional observations from a re-analysis of the deposited data

Results flagged for a closer look

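The effect of exchanging the shRNA for RfxCasR differed between the NT controls and the B4GALNT1 target for 4078 of 13679 genes, by a limma test of the interaction at an adjusted p under 0.05. Of the 158 tested genes named above, 89 were among them. Each value that follows is the log2 difference of the NT pair minus that of the B4GALNT1 pair, on the log2(FPKM + 1) scale.

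A value above 0 means that RfxCasR lay higher, relative to the shRNA, with the NT control than with the B4GALNT1 target. The largest of these were TPRG1L 1.80, CREBL2 1.78, NSA2 1.53, MCU 1.47, LPCAT3 1.35, SQSTM1 1.23, HIST4H4 1.11, HAPLN3 1.03, PSMA6 0.96, ALDOA 0.94, DUSP1 0.91, SDHD 0.90, G3BP2 0.88, ATP5O 0.88 and JUN 0.83. A second set of genes, among them regulators of RNA silencing, cholesterol enzymes and the target gene B4GALNT1 itself, was at HMGCS1 0.71, CAPRIN1 0.69, DICER1 0.69, B4GALNT1 0.67, INSIG1 0.65, LDHA 0.59, JAK1 0.59, VIM 0.54, CNOT8 0.52, ERI1 0.52, FDFT1 0.51, PSMB6 0.46, NCAPH 0.45, MAVS 0.44, GPI 0.44, ATP5B 0.42 and SRXN1 0.41. Smaller positive values were those of PRC1 0.39, MOV10 0.38, P4HA2 0.37, SQLE 0.35, CCNB1 0.35, LIN28B 0.34, H3F3B 0.33, TUG1 0.32, NEFM 0.32, HSPB1 0.31, KRT8 0.28, HMGA1 0.28, H2AFX 0.28, CDC25C 0.26, PSMB7 0.25, PSMD11 0.25, PDIA6 0.25, HSPA1A 0.24, HSP90AB1 0.21, SYMPK 0.17, H1FX 0.16, RAN 0.13 and CALR 0.13.

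A value below 0 means the opposite. These values were TXNIP -1.84, MCRIP1 -1.65, SNX17 -1.54, SNX12 -1.43, FGFRL1 -1.37, PTBP2 -1.04, CDKN2D -1.01, MXD3 -0.96, SLC7A11 -0.95 and CBX7 -0.88 for the genes furthest below 0, which include the splicing regulator PTBP2 and the glucose uptake regulator TXNIP. Genes of the cell cycle, with others, followed at DPP7 -0.76, LIN7B -0.74, CDC25B -0.67, ZNF367 -0.67, CTGF -0.57, AGO3 -0.53, ANLN -0.47, TNRC6C -0.47, E2F1 -0.47, CDC45 -0.43, DUT -0.42 and CDK6 -0.41. The remaining values were ESCO2 -0.40, NDUFS1 -0.39, TRIM25 -0.34, SREBF1 -0.34, XPO5 -0.33, E2F2 -0.33, TNFRSF10B -0.28, TPX2 -0.24, SCAP -0.22, HLA-E -0.22, MCM6 -0.22 and HYOU1 -0.16. In each case the values may come from the shRNA or the RfxCasR groups of either pair, and which of them was not tested.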

How the results depend on the processing

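The counts of calls over the whole table kept to within 1.5 times of their values in all alternatives run, with 1 exception: at an adjusted p under 0.01 the difference between the pairs was called for 2608 genes in place of 4078. Calls between the controls numbered 5766 to 5899 without 1 library, 4839 at an adjusted p under 0.01, 7261 without the array libraries and 6406 with voom on the recovered reads. ANXA4 (0.22) missed an adjusted p of 0.01 and lost its call in 4 of the 6 sets without 1 library, whose values ran from 0.19 to 0.26; B4GALNT1 ran from 0.33 to 0.52 and kept its call, and, like other low genes named above, it has no value with a filter of a mean of 5 FPKM, which it did not reach. With a replicate block, 6950 genes were called, 3198 of them higher; libraries of the same number in the 2 arms correlated at -0.015 to 0.035, and 3 of the 6 libraries correlated best with their own number, so the numbers were not taken to pair the libraries. Besides ANXA4 and B4GALNT1, of the 168 genes named by the rule or in the text no called gene reversed under an alternative, and 18 lost a call in at least 1. Genes not called were not counted as reversed: among them FGFRL1 ran from -0.054 to 0.014 and EIF2AK2 from -0.092 to 0.019. Counts within the gene lists moved more. Of the 28 lists, 25 had 5 or more calls in a direction, and in 10 such a count moved by over 1.5 times in an alternative (a stricter p and the filter of a mean of 5 FPKM were left out here). The number lower went from 6 to between 2 and 3 for interferon-stimulated genes, from 7 to 4 for hairpin processing, from 5 to 3 for let-7 targets and for antioxidant genes, from 7 to 13 for heat shock genes and to 14 for oxidative phosphorylation, and from 7 to 4 or 11 (without the array libraries) for p53 targets. The number higher went from 7 to 4 for the integrated stress response, and from 8 to 5 for antioxidant genes and for immediate early genes. Ribosomal protein genes had 6 to 22 higher (22 with the replicate block) and 2 to 24 lower. The let-7 count was 3 without RfxCasR NT gRNA replicate 1 or 2 or shRNA NT replicate 1 or 2, and the ribosomal protein count lower was 3 without RfxCasR NT gRNA replicate 3 or shRNA NT replicate 1 or 2. Without 1 library, calls were also lost for PLK1 (0.12 to 0.15), HSPB1 (0.13 to 0.18), SNX17 (-0.24 to -0.17) and MCRIP1 (-0.24 to -0.17), in 1 or 2 sets each. Genes near 1 FPKM rest on few reads, which limits what 3 libraries an arm can show. The cause of these changes was not tested.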
